A study of Mus musculus with 192 samples.

Results

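The cells compared here were LSK cells (Lin-negative, Sca-1-positive, cKit-positive blood progenitors) of mouse bone marrow with a high or a low sorter signal for CD11b. In each of 2 library pools of 96 cells, cells were ranked by the CD11b value in the labels. The 32 highest formed the upper class, the next 32 the middle class and the 32 lowest the lower class, and cells under 20% of their pool's median gene UMIs (unique molecular identifiers, the counted transcript molecules) were then left out. That left 63 upper and 64 lower cells, 127 of the 192 cells of the series, beside 64 middle cells. The 1 cell left out was an upper cell, at rank 19 of pool 2, with 708 UMIs. All cells are labelled as C57BL/6. The mice were 8 to 16 weeks old, and the protocols also name C57BL/6 Pep3b, Cas9-Tg and Dach1-GFP mice for the study as a whole. Marrow was enriched for cKit (CD117) on magnetic beads and sorted 1 cell per well, with each cell's antibody signals recorded. No treatment is labelled, and the classes differ in nothing that the experimenters set. No animal is named, so each class was treated as 1 sample. There was no test and no p-value. All intervals are exact 95% intervals that cover counting error only.

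CD11b is the alpha M integrin subunit, encoded by Itgam, which pairs with the beta 2 subunit encoded by Itgb2 to form the Mac-1 receptor of neutrophils, monocytes and macrophages. It is a standard lineage marker, and stem and progenitor cells are usually gated as negative or low for it. LSK cells include stem cells and multipotent progenitors that lean towards lymphoid, granulocyte-monocyte or megakaryocyte-erythroid fates. Early erythroid progenitors switch on Gata1, Klf1 and Car1, and granulocyte-monocyte progenitors make the granule proteins encoded by Mpo, Elane, Prtn3 and Ctsg.

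The promoters of Klf1 and Gata1 are shown because these regulators were among the marker genes fixed for the comparison. Both had under 50 UMIs over upper and lower cells, so they were not among the genes ranked below. Both windows run from 250 bases before to 50 after the gene's start, from RefSeq on GRCm38.p6, with Klf1 at chr8:84901732-84902031 on the plus strand and Gata1 at chrX:7967861-7968160 on the minus strand. Capitals mark GATAA on either strand, which is GATA, the core of the GATA motif, followed by A.
Klf1: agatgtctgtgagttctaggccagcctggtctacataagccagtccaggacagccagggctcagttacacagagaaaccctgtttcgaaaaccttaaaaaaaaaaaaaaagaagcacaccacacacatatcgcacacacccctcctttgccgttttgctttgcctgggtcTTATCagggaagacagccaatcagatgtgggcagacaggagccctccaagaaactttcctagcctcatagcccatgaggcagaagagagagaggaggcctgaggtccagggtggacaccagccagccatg
Gata1: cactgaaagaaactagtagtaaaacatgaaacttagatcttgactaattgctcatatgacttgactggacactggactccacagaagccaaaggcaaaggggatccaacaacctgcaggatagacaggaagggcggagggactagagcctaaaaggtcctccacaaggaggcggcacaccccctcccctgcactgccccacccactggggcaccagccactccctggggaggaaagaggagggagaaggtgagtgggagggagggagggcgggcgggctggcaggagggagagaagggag
The Klf1 window held 1 match to GATAA, read as TTATC and starting at position -80 from the gene's start, and the Gata1 window held 0. GATA followed by another letter, as in gatag in the Gata1 window, was not counted. Of 32851 promoter windows of the same length, 25.4% held at least 1 match, so a match of this kind is common.

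The CD11b signal was low and graded. It had a median of 183 arbitrary units in upper cells (lowest 123, highest 543), 99.6 in middle cells (72.8 to 135) and 49.5 in lower cells (1.25 to 80.1). No gap separated the classes. In pool 1, ranks 32 and 33 had 138 and 135 units, and ranks 64 and 65 had 81.1 and 80.1. In pool 2, ranks 32 and 33 had 123.4 and 122.9 units, and ranks 64 and 65 had 72.8 and 71.9. The protocols in the labels name no CD11b antibody, but present their antibody list as incomplete.

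Upper cells had 1376912 gene UMIs (median 19555 per cell), middle cells 1188684 (17202) and lower cells 1139246 (17230). The spike-in medians were 603, 613 and 605 per cell, in the same order, so upper cells had more gene UMIs per spike-in UMI. Ratios below are relative to gene UMIs. With spike-in UMIs as the total, the median log2 ratio of all genes with 10 UMIs was 0.30, and ratios only slightly below 0 changed sign. Genes of the LSK label were detected in each class. Kit, the cKit receptor, was seen in 61 of 63 upper, 63 of 64 middle and 64 of 64 lower cells. Ly6a, the Sca-1 gene, was seen in 20, 26 and 26 cells, with 46 UMIs in upper and 59 in lower cells (-0.63, -1.22 to -0.05). Of 16 genes of mature neutrophils, 2 reached 10 UMIs over upper and lower cells, and the whole list summed to 32 UMIs in upper, 48 in middle and 34 in lower cells. B lineage genes summed to 74, 278 and 68 UMIs, and 215 of the 278 lay in the middle cell at rank 46 of pool 1, which had a CD127 signal of 29635 units.

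Itgam mRNA showed no difference between upper and lower cells beyond counting error. It had 32 UMIs in upper, 37 in middle and 29 in lower cells, or 23.2 counts per 1000000 gene UMIs (CPM; 15.9 to 32.8), 31.1 (21.9 to 42.9) and 25.5 (17 to 36.6). It was seen in 18 of 63 upper, 22 of 64 middle and 20 of 64 lower cells, with at most 5, 4 and 2 UMIs in a cell. After every cell was thinned to 12147 UMIs, 26.3% of upper, 22.4% of middle and 26.3% of lower cells had a UMI. The classes overlapped throughout. The log2 ratio of upper over lower cells was -0.13, with an interval of -0.90 to 0.65, and was -0.51 in pool 1 and 0.24 in pool 2, and 0.18 when scaled by the spike-ins. Any difference in Itgam mRNA smaller than this interval was not detectable at this depth. Itgb2, its partner, had 35 UMIs in each class. Of 18 integrin and partner genes with at least 10 UMIs, 0 were at least 2-fold higher, against 5.57% of all such genes. At least 2-fold lower was 1, against 4.8%. It was Icam1, an integrin ligand, with 20 UMIs in upper and 35 in lower cells (-1.08, -1.95 to -0.25). The median log2 ratio of the 18 was -0.09, but 0.21 with spike-in UMIs as the total. It was -0.31 without the cells of the upper CD16/32 class described next. Itga4, the alpha 4 integrin that holds progenitors in marrow, had 343 UMIs in upper and 220 in lower cells (0.37, 0.12 to 0.62).

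**Figure D1:**
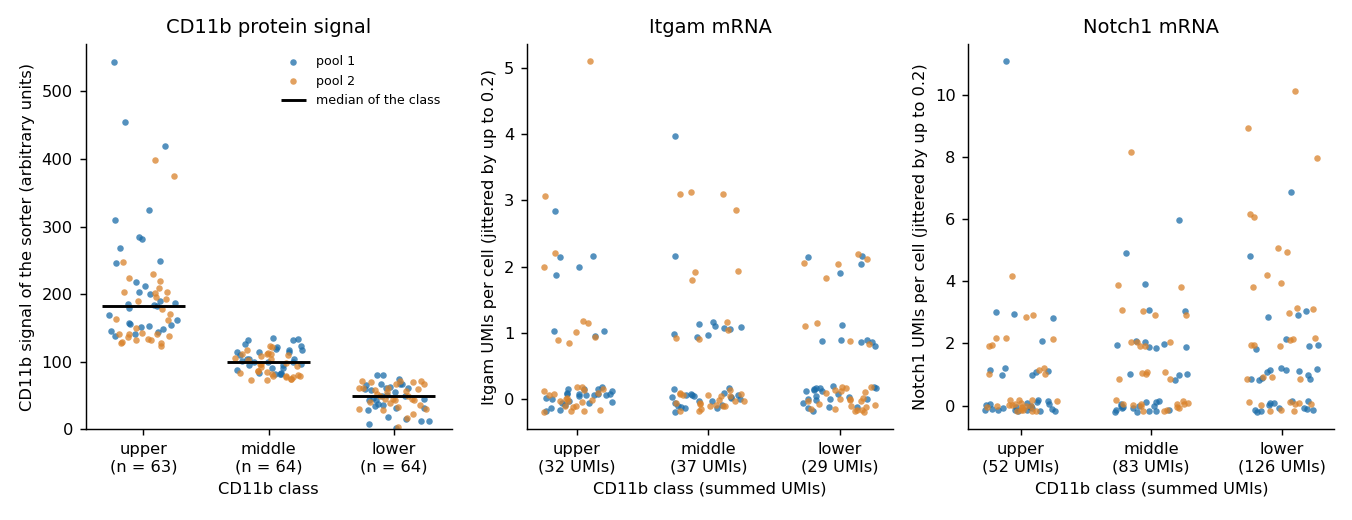
CD11b signal (arbitrary units), Itgam UMIs and Notch1 UMIs of each cell by CD11b class, with 1 point per cell coloured by pool. The median signal was 183 in upper, 99.6 in middle and 49.5 in lower cells, while Itgam summed to 32, 37 and 29 UMIs and Notch1 to 52, 83 and 126.

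Other signals moved with CD11b. CD16/32, the Fc gamma receptors II and III, had a median of 853 units in upper and 460 in lower cells, and 37 of 63 upper cells but 9 of 64 lower cells lay in the upper class of CD16/32 itself, formed by rank as for CD11b. CD127, the interleukin-7 receptor, had medians of 738 and 402, with 38 upper and 15 lower cells in its upper class. CD150 placed 30 upper and 19 lower cells in its upper class, and forward scatter, a measure of cell size, 28 and 15. Side scatter, a measure of granularity, placed 27 and 16 there, and cKit 25 and 17. CD135, the Flt3 receptor, had a median of 627 in both. Over the 96 cells of a pool, Spearman's rho with CD11b was 0.46 for CD16/32 in each pool, 0.48 in pool 1 and 0.17 in pool 2 for CD127, and 0.28 and 0.05 for forward scatter. It was 0.22 and 0.16 for side scatter, and 0.032 and 0.21 for cKit. All signals come from the same cells and the same sort. Whether the mRNA differences below go with CD11b, with these signals or with carry-over of fluorescence between channels was not tested. Values without the CD16/32 upper class are given beside several of the results.

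Across 7280 genes with at least 50 UMIs over upper and lower cells, 127 (1.74%) were at least 2-fold higher in upper cells and 71 (0.975%) at least 2-fold lower. The median log2 ratio of all 7280 was -0.00128. Erythroid, mitotic and granule genes were among the higher ones. Genes of lymphoid priming and some interferon-induced genes were among the lower ones. Many of the higher genes had a large share of their UMIs in 1 cell. Of the 127, 34 (26.8%) had over 20% of their upper and lower UMIs in 1 cell, against 7 of the 71 (9.86%) and 51 of all 7280 (0.701%). Without that cell, 7 of these 34 higher genes and 5 of these 7 lower genes fell under 2-fold. When every gene lost the cell with most of its UMIs, 87 of the 127 and 37 of the 71 were still past 2-fold. In each pool alone, 52 of the 127 and 18 of the 71 were past 2-fold in the same direction.

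**Figure D2:**
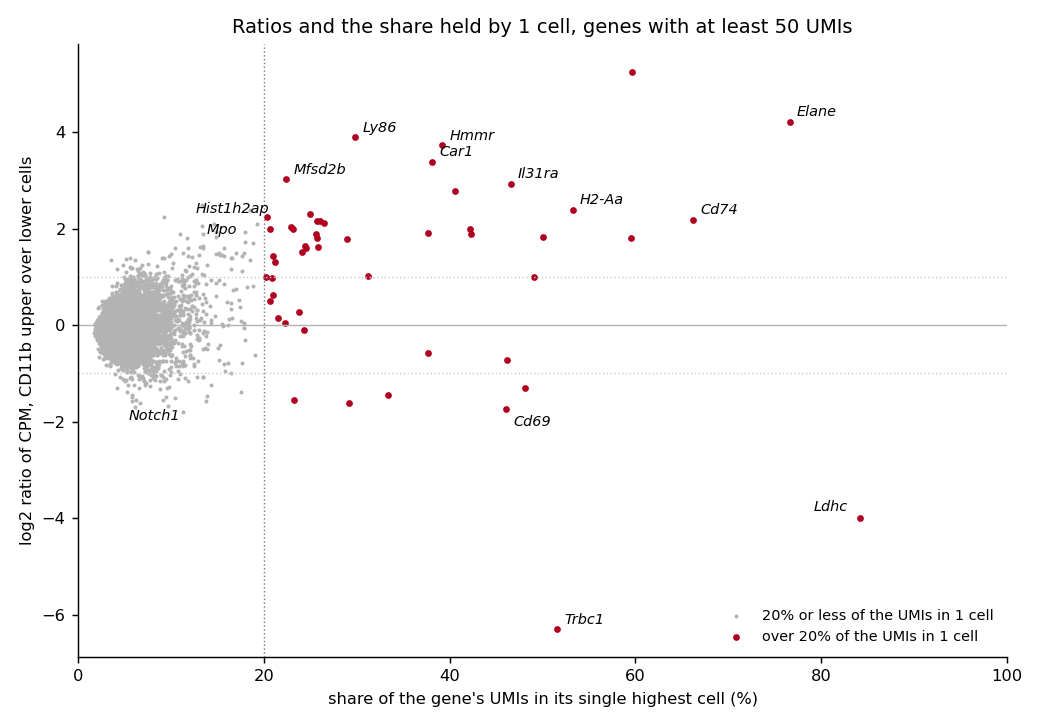
Log2 ratio of CPM, upper over lower cells, against the share of the gene's UMIs in its single highest cell, for 7280 genes with at least 50 UMIs. Red points, 51 genes, have over 20% of their UMIs in 1 cell, and most of them lie above 0. Cd74, at 66.2%, and Ldhc, at 84.2%, sit far to the right.

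The 51 genes held by 1 cell traced back to 17 cells, and the top cell was an upper cell for 41 of them and a lower cell for 10. The cell at CD11b rank 4 of pool 1 alone led 16, among them Hmmr, Tpx2, Aspm, Cenpe, Cenpf, Ccna2, Ccnb2 and Kif11, all genes of the mitotic spindle or of mitotic entry. The cell at rank 6 of pool 2 led 6, with Cd74, H2-Aa, H2-Ab1 and H2-Eb1, the genes of MHC class II antigen presentation. The lower cell at rank 88 of pool 2 led 5, among them Cd69 and Zfp36. The cell at rank 8 of pool 1 led Elane and Ctsg, and that at rank 4 of pool 2 led Car1 and Mt1.

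Erythroid genes were higher in upper cells, carried by few of them. Car1, the carbonic anhydrase of early erythroid progenitors (chr3:14766216-14808368, GRCm38), had 569 UMIs in upper, 176 in middle and 45 in lower cells. That is 413 CPM (380 to 449) in upper, 148 (127 to 172) in middle and 39.5 (28.8 to 52.9) in lower cells. Cells with a Car1 UMI were about as frequent in every class, at 24 of 63, 26 of 64 and 23 of 64, and the class medians were 0. In each class most of these cells were of pool 2, and most had few Car1 UMIs. The difference lay in the highest cells. The 3 highest upper cells had 234, 147 and 129 UMIs, the 3 highest middle cells 96, 33 and 12, and the 3 highest lower cells 8, 5 and 4. The log2 ratio was 3.39 (2.95 to 3.86), or 10.5-fold, and 2.68 without the cell with 234. It was 5.10 in pool 1 and 3.24 in pool 2.

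Klf1, the transcription factor that drives late erythroid genes, had 41 UMIs in upper, 2 in middle and 2 in lower cells. It was seen in 9 upper, 2 middle and 2 lower cells, with at most 15, 1 and 1 UMIs in a cell, and its log2 ratio was 4.08 (2.14 to 7.18). Gata1, the factor that sets up the erythroid and megakaryocyte programmes, had 32, 7 and 2 UMIs in 12, 5 and 1 cells, with a ratio of 3.73 (1.76 to 6.83). Without the top cell, Klf1 had 3.48 and Gata1 3.16. Both were thus seen in more upper cells than lower ones, unlike Car1. After thinning, 10.5% of upper, 1.72% of middle and 1.75% of lower cells had a Klf1 UMI, and 15.8%, 3.45% and 1.75% a Gata1 UMI.

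Of 29 erythroid genes, 28 were in the counts and 20 reached 10 UMIs. Of these 20, 18 had a ratio above 0, against 49.5% of all 11988 genes with 10 UMIs, and 15 were at least 2-fold higher, against 5.57%. Their median log2 ratio was 1.44, against -0.006 over all these genes. It was 1.59 in pool 1 and 0.78 in pool 2 over the same 20 genes. For 12 of the 20, 1 cell held over 20% of the UMIs, against 576 of all 11988 genes. The other 8 had a median of 1.1. Of these 8, 5 were at least 2-fold higher, against 464 of all 11412 genes not held by 1 cell. Tfrc, the transferrin receptor that imports iron, was not held by 1 cell and had 100 UMIs in upper, 69 in middle and 40 in lower cells (1.05, 0.51 to 1.62). Blvrb, a reductase of haem breakdown products, had 55, 20 and 12 (1.92, 1.00 to 2.96). Car2, another carbonic anhydrase, had 1105, 767 and 689 (0.41, 0.27 to 0.55). Gfi1b, a repressor needed for erythroid and megakaryocyte cells, had 29, 17 and 9 (1.41, 0.30 to 2.68). The water channel gene Aqp1 had 45, 17 and 2 UMIs (4.22, 2.28 to 7.31), with 31.9% of the upper and lower UMIs in 1 cell. Epor, the erythropoietin receptor, had 14, 2 and 0 UMIs, in 8 upper, 2 middle and 0 lower cells. Against a floor of 3 UMIs over the lower class, it was at least 1.95 higher on the log2 scale. Nfe2, a factor shared with megakaryocytes, went the other way with 72, 95 and 90 UMIs (-0.60, -1.06 to -0.13). The globin genes were near 0: Hba-a1 had 20, 13 and 6 UMIs, with 73.1% of those of upper and lower cells in 1 cell, and Hbb-bt had 20, 26 and 18. Megakaryocyte and platelet genes had a median of -0.06 over 14 genes.

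The cells behind the erythroid values can be named. The highest erythroid level of all belonged to a middle cell, at rank 33 of pool 1, with 10479 CPM and 33 Car1 UMIs; its CD11b signal of 135 was the first below the upper class. The next was an upper cell. The cell at rank 4 of pool 2 had 8649 CPM of erythroid genes, 234 Car1, 15 Klf1 and 4 Gata1 UMIs, and 49372 gene UMIs, the deepest of all kept cells. The cell at rank 13 of pool 1 had 7345 CPM, but 2 Car1 and 5 Klf1 UMIs. The fourth was the middle cell at rank 44 of pool 2, with 6528 CPM and 96 Car1 UMIs. The upper cell at rank 18 of pool 2 had 6398 CPM, 147 Car1, 11 Klf1 and 57 Mki67 UMIs. The upper cell at rank 15 of pool 1 had 6010 CPM, 129 Car1, 11 Gata1 and 81 Il31ra UMIs. None of these 4 upper cells had a UMI of Itgam, Elane or Ctsg, but most upper cells also lacked Itgam and Elane. Mpo had 3 UMIs in the cell at rank 15 of pool 1 and 1 in that at rank 13. Prtn3 had 1 in the cell at rank 13 of pool 1 and 1 in that at rank 4 of pool 2. The CD16/32 signals of these 4 upper cells, 100 to 407 units, were under the lower cells' median of 460. Among the 19 cells with most erythroid CPM, 12 were upper, 4 middle and 3 lower cells. The border of these 19, at 1963 CPM, had 13 cells within 10% of it. The median cell had 997 CPM in upper, 1021 in middle and 716 in lower cells. When the 5 upper or lower cells with most erythroid UMIs were left out, all of them upper cells that held 35.8% of the list's UMIs, the median ratio was 0.28. Leaving out the highest cells lowers the side they lie on by construction.

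**Figure D3:**
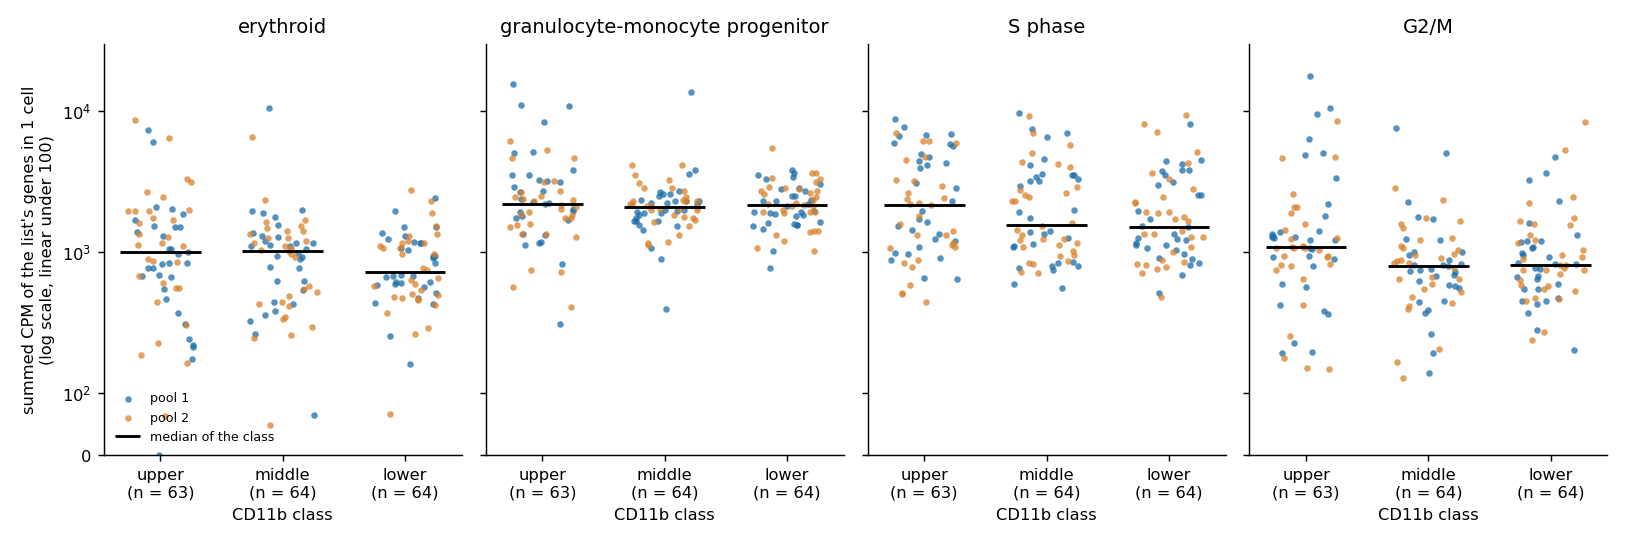
Summed CPM of the erythroid, granulocyte-monocyte progenitor, S phase and G2/M genes in each cell by CD11b class, on an axis that is logarithmic above 100, with a line at the class median. The medians in upper, middle and lower cells were 997, 1021 and 716 CPM for erythroid genes and 2149, 1556 and 1514 CPM for S phase genes. The highest points are mostly upper cells for the erythroid, granulocyte-monocyte progenitor and G2/M genes, with 12, 11 and 11 of the 19 highest. For S phase they are spread over the classes, with 9.

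Granule genes of granulocyte-monocyte progenitors were higher in upper cells, while most other genes of that list moved little. Mpo, the myeloperoxidase gene, had 499 UMIs in upper, 255 in middle and 127 in lower cells, or 362 CPM (331 to 396), 215 (189 to 243) and 111 (92.9 to 133). It was seen in 36 of 63, 41 of 64 and 42 of 64 cells, so the share of cells was no higher in upper cells. The highest cells had 118 and 78 UMIs among upper, 121 and 20 among middle, and 9 and 9 among lower cells. The log2 ratio was 1.70 (1.42 to 1.99), or 3.25-fold, with 1.94 in pool 1 and 0.92 in pool 2. The top cell held 18.8%, and the ratio without it was 1.34. Elane, neutrophil elastase, had 135, 44 and 6 UMIs, but 76.6% of the upper and lower UMIs lay in 1 cell. Without that cell its ratio was 1.93, and it was seen in 6 upper, 9 middle and 6 lower cells. Ctsg, cathepsin G, had 67, 38 and 15 UMIs (1.89, 1.06 to 2.80), with 25.6% in the same cell. Prtn3, proteinase 3, had 268, 217 and 172 UMIs in 52, 49 and 50 cells (0.37, 0.08 to 0.65).

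Of the 23 genes of this list with 10 UMIs, 16 were above 0, against 49.5% of all genes with 10 UMIs. At least 2-fold higher were 4, against 5.57%, and at least 2-fold lower 0, against 4.8%. Of the 19 not held by 1 cell, 1 was at least 2-fold higher, against 464 of all 11412 such genes. The median of the 23 was 0.31, with 0.63 in pool 1 and -0.01 in pool 2, and 0.18 over the 19 genes not held by 1 cell. Irf8, a factor of monocyte and dendritic fate, had 104 UMIs in upper and 50 in lower cells (0.78, 0.28 to 1.30), and 0.35 without the cell at rank 6 of pool 2. Plac8 had 740 and 501 (0.29, 0.12 to 0.46), and Calr, the chaperone calreticulin, 685 and 454 (0.32, 0.15 to 0.49). Spi1, the gene of the myeloid factor PU.1, had 77 and 63 (0.02, -0.48 to 0.52), and Cebpa 41 and 30 (0.18, -0.54 to 0.91). Anxa1, annexin A1, had 92 and 106 (-0.48, -0.90 to -0.06), and Cd34, a surface sialomucin of progenitors, 587 and 625 (-0.36, -0.53 to -0.20). The myeloid factors Spi1 and Cebpa thus lay within counting error of no difference. Ms4a3, another gene of these progenitors, had 12 UMIs in upper and 1 in lower cells. It was among the genes held by 1 cell.

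The highest cell for this list was the upper cell at rank 8 of pool 1, with 15468 CPM, 118 Mpo, 108 Elane and 21 Ctsg UMIs. Its CD16/32 signal of 4386 units was the highest of the upper class. The second was the middle cell at rank 48 of pool 1, with 13737 CPM and 121 Mpo UMIs. The upper cells at ranks 6, 21 and 32 of pool 1 followed, with 35, 78 and 39 Mpo UMIs. Of the 19 highest cells, 11 were upper, 4 middle and 4 lower cells, and the medians of the classes were 2199, 2101 and 2172 CPM. None of these 19 cells was among the 19 highest for erythroid genes.

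Within the upper class, erythroid and granule UMIs lay on opposite sides of the CD16/32 signal. The 37 upper cells in the CD16/32 upper class had 19 Car1, 4 Klf1, 429 Mpo and 135 Elane UMIs. The other 26 upper cells had 550 Car1, 37 Klf1, 70 Mpo and 0 Elane UMIs. Few cells made up several of these sums. The cells at ranks 4 and 18 of pool 2 and rank 15 of pool 1 had 234, 147 and 129 of the 550 Car1 UMIs. They also had 15, 11 and 3 of the 37 Klf1 UMIs. The cell at rank 8 of pool 1 had 108 of the 135 Elane UMIs. Erythroid genes summed to 943 CPM in the 37 cells and 2920 CPM in the 26, and granulocyte-monocyte progenitor genes to 3382 and 1924 CPM. G2/M genes did not divide this way, with 2772 and 2816 CPM. Lower cells outside the CD16/32 upper class, 55 in all, had 38 Car1, 102 Mpo and 5 Elane UMIs, with 878 CPM of erythroid and 2164 CPM of granulocyte-monocyte progenitor genes. Without the CD16/32 upper class on either side, the ratio of Mpo was 0.33 and the median of its list -0.35, while Car1 had 4.73 and the erythroid median was 2.81. The cells with 234, 147 and 129 Car1 UMIs remained in the Car1 and erythroid values. Fcgr3, which encodes part of CD16/32, had 18 UMIs in upper, 3 in middle and 2 in lower cells (2.90, 0.83 to 6.05), and 15 of the 18 lay in the 37 upper cells. Fcgr3 was held by 1 cell, with 7 of the 18 in the cell at rank 21 of pool 1. The cell at rank 8 of pool 1 had 4 more.

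Cell-cycle genes were higher in upper cells, more so for G2 and mitosis than for S phase. All 42 G2/M genes had at least 10 UMIs and a ratio above 0, against 49.5% of all genes with 10 UMIs. At least 2-fold higher were 28 of the 42, against 5.57% of all genes. The median was 1.61, with 1.83 in pool 1 and 0.68 in pool 2. For 22 of the 42 genes 1 cell held over 20% of the UMIs, against 576 of all 11988 genes with 10 UMIs. The other 20 had a median of 0.90. Of these 20, 8 were at least 2-fold higher, against 464 of all 11412 genes not held by 1 cell. Against the middle class the upper class had a median of 1.55, and the middle over the lower class had -0.13. Mki67, a marker of cycling cells, and Top2a, topoisomerase II alpha, had ratios of 0.87 and 0.97. Cks2, a subunit of cyclin-dependent kinases, had 109 UMIs in upper, 36 in middle and 21 in lower cells (2.10, 1.42 to 2.85), in 28, 20 and 15 cells. Cdca3, which promotes entry into mitosis, had 50, 11 and 10 (2.05, 1.05 to 3.19). Knl1, a kinetochore scaffold, had 117, 34 and 32 (1.6, 1.02 to 2.21). Ube2c, the ubiquitin-conjugating enzyme of the anaphase-promoting complex, had 43, 11 and 3 (3.57, 1.92 to 5.90), with 41.3% in 1 cell. Smc4, a condensin subunit, had 398, 249 and 262 (0.33, 0.10 to 0.56). Kif23 had 53, 40 and 42 (0.06, -0.55 to 0.68).

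The cell at CD11b rank 4 of pool 1 had the highest G2/M level, 17711 CPM, with 740 UMIs of the list, 52 Mki67 and 67 Top2a UMIs and 1 Itgam UMI. The upper cells at ranks 28 and 14 of pool 1 had 10485 and 9491 CPM, the upper cell at rank 18 of pool 2 had 8446, and the lower cell at rank 88 of pool 2 had 8360. Of the 19 highest cells, 11 were upper, 3 middle and 5 lower cells. The class medians were 1077, 798 and 811 CPM. The 5 cells of either side with most G2/M UMIs were all upper cells and held 38.1% of the list's UMIs. Without them the median was 0.23, with the same remark on construction as above. Of the 19 cells highest for erythroid genes, 5 were also among the 19 highest for G2/M genes, and 4 of these were upper cells. Forward scatter was 142000 units at the median in upper and 133500 in lower cells. Without cells of the forward scatter upper class, the G2/M median was 1.13.

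S phase genes had a smaller difference, seen mainly in pool 1. Of 34 genes, 31 were above 0, against 49.5% of all genes with 10 UMIs. At least 2-fold higher were 6, against 5.57% of all genes. The median was 0.48. It was 0.79 in pool 1 and 0.061 in pool 2, and 0.48 over the 32 genes not held by 1 cell. Fen1, a flap endonuclease of lagging-strand synthesis, had 105 UMIs in upper, 60 in middle and 37 in lower cells (1.23, 0.68 to 1.81). Rrm1, the large subunit of ribonucleotide reductase, had 169, 84 and 69 (1.02, 0.61 to 1.44). Clspn, the checkpoint mediator claspin, had 48, 25 and 13 (1.61, 0.70 to 2.62). Mcm3, of the replicative helicase, had 255, 192 and 119 (0.83, 0.51 to 1.15), while Mcm7 of the same ring had 388, 271 and 308 (0.06, -0.16 to 0.28). The median cell had 2149 CPM of S phase genes in upper, 1556 in middle and 1514 in lower cells. Upper and lower medians were 2573 and 1423 CPM in pool 1, and 1804 and 1689 CPM in pool 2. The cells highest for S phase genes were spread over the classes, with 9 upper, 6 middle and 4 lower cells among the 19 highest. The second of them, the lower cell at rank 96 of pool 2, had a CD127 signal of 30309 units.

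Histone H2A genes of the replication-dependent cluster went with pool 1. These genes package newly made DNA and are near-identical copies whose reads may be split among them, so they are best read as 1 signal. Most of their mRNA ends in a stem-loop without a poly(A) tail, while the library was primed on poly(A). All 9 with at least 50 UMIs were at least 2-fold higher in upper cells, against 1.74% of all genes with 50 UMIs. Their median was 1.47, but 3.03 in pool 1 and 0.45 in pool 2, where 0 of 9 reached 2-fold. Hist1h2ap had 1079 UMIs in upper, 269 in middle and 208 in lower cells (2.10, 1.89 to 2.32; pool 1 3.04, pool 2 0.76). Cells with 70 or more of its UMIs were 8 upper, 1 middle and 1 lower. The lower one, at rank 88 of pool 2, had 92 of the 208. For Hist1h2ad, that same cell held 109 of the 169 UMIs of lower cells, and without it the ratio was 2.91 in place of 1.47.

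Of the 15 genes named as higher, not held by 1 cell, 4 belonged to none of these groups. Mns1, first known from meiosis, had 89 UMIs in upper, 32 in middle and 14 in lower cells (2.40, 1.57 to 3.32), in 26, 13 and 12 cells. Apoe, apolipoprotein E, had 207, 78 and 49 (1.81, 1.35 to 2.29) in 31, 28 and 23 cells, with 1.77 in pool 1 and 1.75 in pool 2. Its ratio was 1.83 without the CD16/32 upper class. Tec, a tyrosine kinase of antigen and cytokine receptor signalling, had 46, 28 and 8 UMIs (2.25, 1.15 to 3.54), with 2.29 in pool 1 and 2.20 in pool 2. It was seen in 26 of 63 upper, 21 of 64 middle and 8 of 64 lower cells, with at most 5, 3 and 1 UMIs in a cell. Rab44, a Rab GTPase, had 83, 29 and 18 (1.93, 1.18 to 2.76), with 2.59 in pool 1 and 0.17 in pool 2. Tec and Apoe thus showed the same size in both pools without a single cell behind them.

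**Figure D4:**
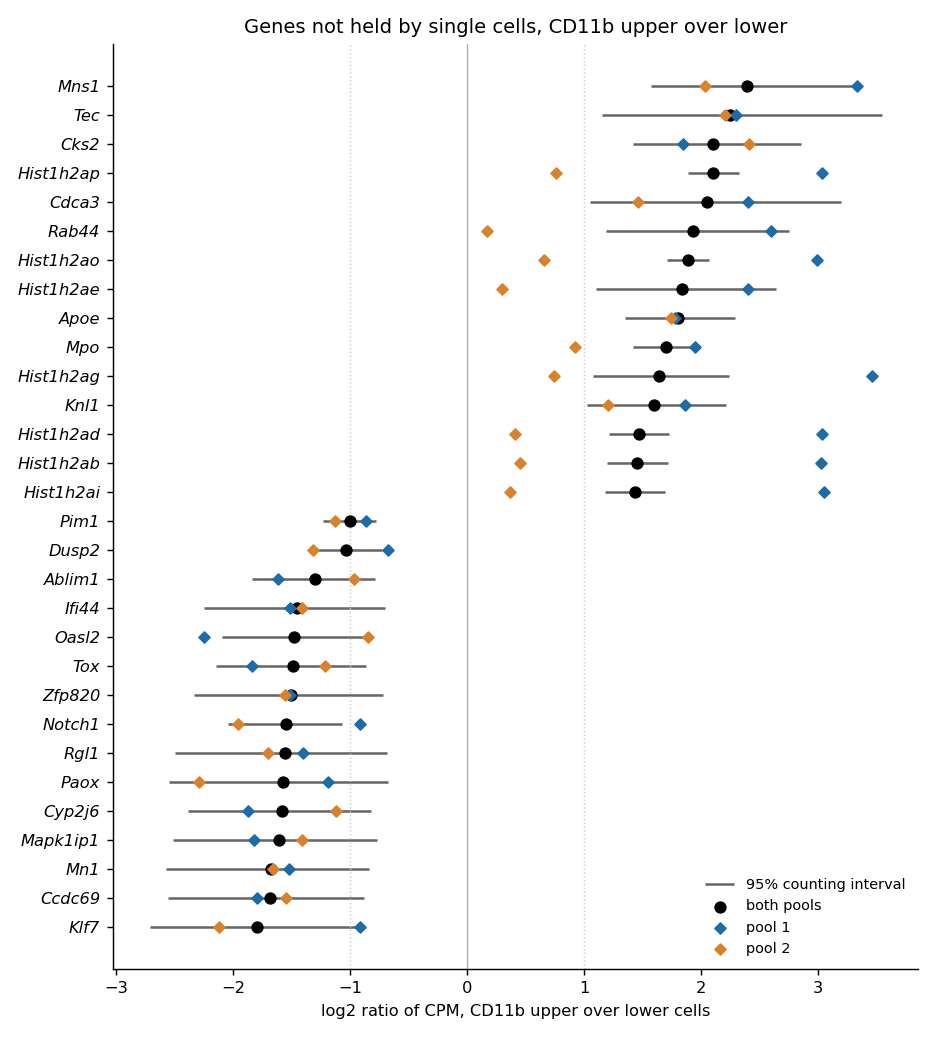
Log2 ratio of CPM, upper over lower cells, of the 30 named genes with no cell over 20% of the UMIs: black points for both pools with 95% counting intervals, diamonds for each pool, dotted lines at 2-fold. Tec and Apoe have pool values close together, and the histone genes have pool 1 values of 2.40 or more and pool 2 values under 1.

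The genes higher through single cells gave large ratios that depended on those cells to different degrees. Cd74, the class II invariant chain, had 198 UMIs in upper, 39 in middle and 36 in lower cells (2.19, 1.67 to 2.74). The cell at rank 6 of pool 2 held 155 of them, and without it the ratio was -0.000119. H2-Aa had 159, 44 and 25 (2.40, 1.78 to 3.07) and 1.03 without the same cell. Over 8 genes of dendritic cells and class II the median was 0.67, and over the 4 not held by 1 cell it was -0.19. That cell had 27255 CPM of the list and a CD16/32 signal of 2178 units, and it had 0 Mpo and 0 Itgam UMIs. Ly86, which binds the Toll-like receptor homologue RP105, had 54, 6 and 3 UMIs (3.90, 2.27 to 6.22), and 3.39 without the top cell. Il31ra, the interleukin-31 receptor subunit, had 157 UMIs in upper and 17 in lower cells (2.93, 2.21 to 3.75), and 1.93 without its top cell. Middle cells had 277, of which 261 lay in the cell at rank 37 of pool 1. Mfsd2b, the sphingosine-1-phosphate exporter of red cells and platelets, had 69, 15 and 7 (3.03, 1.91 to 4.40), and 2.63 without its top cell. Mt1, a metallothionein, had 66, 14 and 8 (2.77, 1.71 to 4.04). Hmmr, a spindle protein, had 48, 5 and 3 (3.73, 2.09 to 6.05). Monocyte and macrophage genes had a median of 1.09 over 10 genes and 0.55 over the 7 not held by 1 cell. Ms4a6c, one of these 7, had 35 UMIs in upper, 22 in middle and 10 in lower cells (1.53, 0.49 to 2.71), while Lyz2, lysozyme, had 139, 125 and 109 (0.08, -0.29 to 0.45).

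Of the 15 named lower genes, none had over 13.9% of its UMIs in 1 cell, while 37 of all 71 genes at least 2-fold lower stayed past 2-fold without their top cell. Notch1, the receptor that directs lymphoid progenitors to the T lineage (chr2:26457903-26516663, GRCm38), had 52 UMIs in upper, 83 in middle and 126 in lower cells. That is 37.8 CPM (28.2 to 49.5) in upper, 69.8 (55.6 to 86.6) in middle and 111 (92.1 to 132) in lower cells. It was seen in 23 of 63 upper, 34 of 64 middle and 43 of 64 lower cells, and after thinning in 29.8%, 46.6% and 56.1%. The cell medians were 0, 1 and 1, and the highest cells had 11, 8 and 10 UMIs. Over both pools together, the level was lower in each higher CD11b class, while in pool 1 middle and lower cells were close. The log2 ratio was -1.55 (-2.05 to -1.07), with -0.92 in pool 1 and -1.96 in pool 2. Its top cell was an upper cell, and without it the ratio was -1.86. Without the CD16/32 upper class it was -0.96.

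Pim1, a serine/threonine kinase downstream of cytokine receptors, had 256 UMIs in upper, 390 in middle and 425 in lower cells (-1.0, -1.23 to -0.78). It was seen in 54 of 63, 63 of 64 and 63 of 64 cells, with cell medians of 3, 4.5 and 6 UMIs. Dusp2, a phosphatase of MAP kinases, had 142, 158 and 241 (-1.04, -1.35 to -0.73). Without their top cells these had -0.96 and -0.86, while the other 13 of the 15 named lower genes stayed past 2-fold. Tox, an HMG-box factor of T cell and innate lymphoid development, had 31, 62 and 72 UMIs (-1.49, -2.15 to -0.86) in 18, 33 and 31 cells. Klf7, a zinc finger factor, had 16, 27 and 46 (-1.80, -2.72 to -0.95). Mn1, a transcriptional regulator known from leukaemia, had 17, 28 and 45 (-1.68, -2.58 to -0.84). Ablim1, an actin-binding protein, had 47, 71 and 96 (-1.30, -1.84 to -0.79). Oasl2 and Ifi44, which are interferon-induced, had 35, 69 and 81 UMIs (-1.48, -2.10 to -0.90) and 22, 36 and 50 (-1.46, -2.25 to -0.71). The others were Ccdc69, Cyp2j6, Mapk1ip1, Zfp820, Rgl1 and Paox, with ratios of -1.69 to -1.51 and 15 to 21 UMIs in upper cells against 37 to 52 in lower cells. Of 22 interferon genes with 10 UMIs, 6 were above 0, against 49.5% of all genes with 10 UMIs. The median of the 22 was -0.21, but 0.10 with spike-in UMIs as the total.

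Most genes of lymphoid priming had lower levels in upper cells. Of 24 with 10 UMIs, 20 had a ratio below 0, against 6054 of all 11988 genes with 10 UMIs. At least 2-fold lower were 5, against 4.8% of all genes, and at least 2-fold higher 0, against 5.57%. Of the 19 not held by 1 cell, 2 were at least 2-fold lower, against 466 of all 11412 such genes. The median of the 24 was -0.50, with -0.29 in pool 1 and -0.75 in pool 2, and -0.43 over the 19 not held by 1 cell. It was -0.38 without the CD16/32 upper class and -0.19 with spike-in UMIs as the total. The list summed to 2659 CPM in upper and 3748 CPM in lower cells, and outside the CD16/32 upper class to 3421 and 3925 CPM. Dntt, the terminal transferase of antigen receptor joining, had 359 UMIs in upper, 416 in middle and 537 in lower cells (-0.85, -1.05 to -0.66), but -0.24 in pool 1 and -2.06 in pool 2. Ighm had 228, 268 and 323 (-0.78, -1.03 to -0.53). Lck, a kinase of T cell signalling, had 46, 54 and 78 (-1.04, -1.59 to -0.49). Flt3, which encodes CD135, had 320, 428 and 393 (-0.57, -0.79 to -0.35), although the CD135 medians were alike. Il7r, which encodes CD127, had 26, 13 and 11 (0.97, -0.10 to 2.13) in 3, 4 and 4 cells. Ccr9, a chemokine receptor of thymus homing, had 29, 31 and 70 (-1.54, -2.22 to -0.90) in 4, 8 and 17 cells. An upper cell held 23.2% of the upper and lower UMIs, and without it the ratio was -3.80.

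T, NK and innate lymphoid genes had a median of -0.95 over 9 genes, and few cells were behind the largest ratios. Without the CD16/32 upper class the median was -1.78 over 8 genes, and with spike-in UMIs as the total -0.64. Trbc1, a constant segment of the T cell receptor beta chain, had 1 UMI in upper, 0 in middle and 65 in lower cells, and the 65 lay in 4 cells. Of the lower cells, 6 had a CD127 signal above 2000 units, as had 4 upper and 4 middle cells. Other lower genes held by 1 cell included Ldhc, a lactate dehydrogenase known from testis, with 4 UMIs in upper and 53 in lower cells (-4.0, -5.93 to -2.56), and -0.61 without the cell at rank 76 of pool 1. Cd69, an early activation marker, had 27 and 75 (-1.75, -2.44 to -1.10), and -0.37 without the cell at rank 88 of pool 2. Zfp36, an RNA-binding protein, had 34 and 86 and lost the 2-fold size without the same cell (-0.90). Rora, a nuclear receptor of innate lymphoid cells, had 23 and 52, and -0.52 without its top cell.

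Stem cell genes were somewhat lower in upper cells, mainly in pool 1. Of 20 with 10 UMIs, 14 had a ratio below 0, against 6054 of all 11988 genes with 10 UMIs. At least 2-fold lower were 3, against 4.8% of all genes. The median was -0.40, or -0.60 in pool 1 and -0.073 in pool 2. It was -0.61 over 17 genes without the CD16/32 upper class and -0.093 with spike-in UMIs as the total. Hlf, a factor of stem cells, had 681 UMIs in upper, 880 in middle and 701 in lower cells (-0.32, -0.47 to -0.16), with -0.98 in pool 1 and 0.45 in pool 2. Procr had 23, 29 and 38 (-1.0, -1.81 to -0.21), and Esam 7, 16 and 22 (-1.93, -3.40 to -0.65). Gata2 had 171, 110 and 109 (0.38, 0.02 to 0.74). Dach1, a factor the study's title names, had 188 UMIs in upper, 172 in middle and 89 in lower cells (0.81, 0.43 to 1.19), with 0.96 in pool 1 and 0.32 in pool 2, in 37, 42 and 34 cells.

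**Figure D5:**
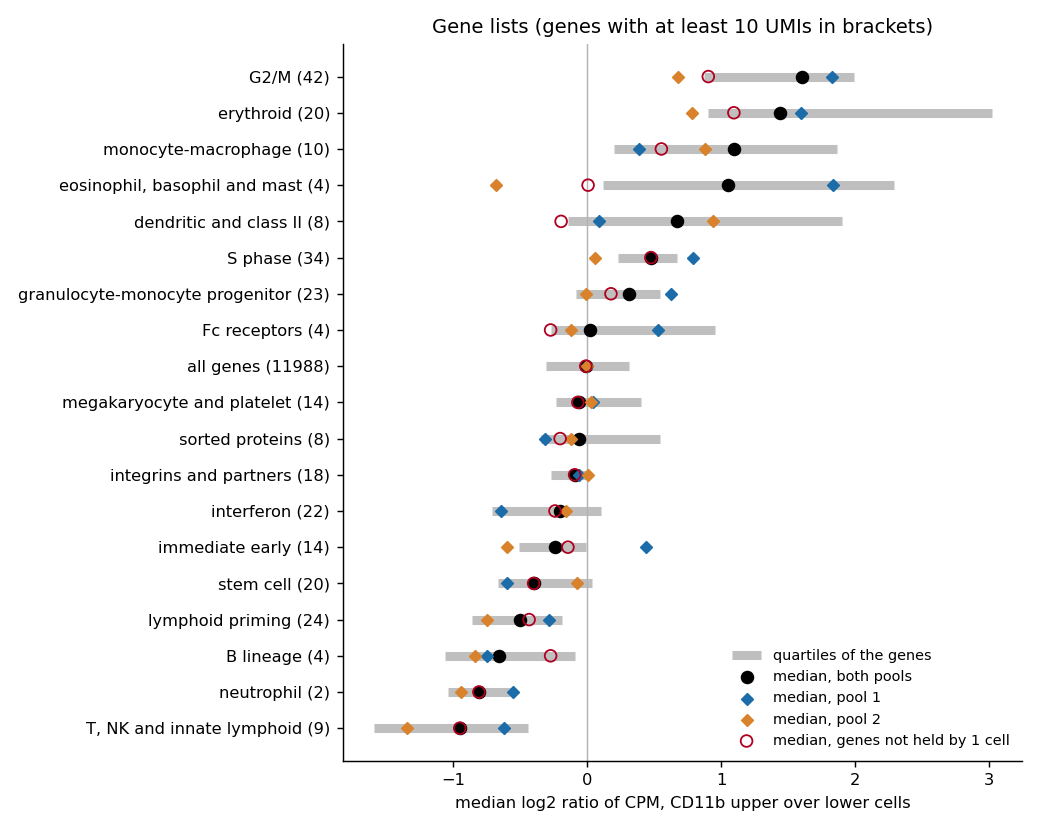
Median log2 ratio of CPM, upper over lower cells, for each gene list (black), for each pool (diamonds) and over the genes not held by 1 cell (open red), with the quartiles of the genes as grey bars. G2/M and erythroid genes lie highest, at 1.61 and 1.44, and lymphoid priming genes at -0.50.

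The same genes were set between the upper and lower classes of other signals, which hold many of the same cells, so the values are given side by side and not compared. The erythroid median was 1.44 between the CD11b classes, -1.11 between those of CD16/32, 1.03 for CD127, 1.90 for CD150 and -0.06 for forward scatter. The G2/M median was 1.61, 0.63, 1.85, 1.59 and 1.39 in that order, and the S phase median 0.48, 0.41, 0.84, 0.62 and 1.67. The granulocyte-monocyte progenitor median was 0.31, 0.64, 0.21, -0.52 and 0.46. Mpo had 1.70, 2.34, 0.73, -0.69 and 2.16. Notch1 had -1.55, -1.88, 0.57, -0.72 and 0.13. Apoe had 1.81, 0.68, 1.51, 2.33 and -0.08.

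Of the 191 kept cells, 60 were among the 19 highest for at least 1 of the erythroid, granulocyte-monocyte progenitor, S phase and G2/M lists. They were 34 upper, 13 middle and 13 lower cells.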

How the data were processed

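The authors deposited UMI counts per gene and cell, not normalized, made with an adapted CEL-seq2 protocol with 6-base UMIs, poly(A) priming and ERCC spike-ins, per the labels' protocols. The counting tool is not given in the sources used here. The submitters' processing notes name GRCh38, a human build, while the genes carry mouse identifiers, so the build is uncertain. Symbols and coordinates came from GENCODE M21 (GRCm38) by identifier, for 20530 of 20764 genes.

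Classes were formed by CD11b rank in each pool of 96 cells, a pool being the first index of a cell's title. Doublets were not called, as cells were sorted singly. UMIs were summed over a class and divided by its gene UMIs (CPM, per 1000000). Ratios have exact conditional binomial intervals and sums exact Poisson intervals. A side at 0 was set at 3 UMIs over the class. Genes needed 50 UMIs over upper and lower cells, and list members 10. A gene was held by 1 cell when that cell had over 20% of these UMIs. Thinning left out 19 of 191 cells. Calculations used Python 3.11.15, numpy 2.4.6, pandas 2.3.3 and scipy 1.17.1, and the ratio was tested on simulated data. Other totals, depths, class sizes, filters, pools and sets of cells were tried.

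The members, lists and rules were chosen with earlier results of these data known. Named were the 15 genes per direction with the interval farthest from 0, the same sign in both pools and no cell over 20%. To these came the 8 per direction held by 1 cell and the genes of the sorted proteins. Itgb2, Dach1, Car1, Klf1, Gata1 and the 6 members of each main list with most UMIs were also named. Predicted gene models, genes without a symbol, pseudogenes and ribosomal protein genes were left out of the 15 and the 8. Further list members and the single cells described were picked with their values in view.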

Additional observations from a re-analysis of the deposited data

How the results depend on the processing

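The count of genes at least 2-fold higher and lower, 127 and 71, was 329 and 23 with spike-in UMIs as the total, 53 and 29 with every cell thinned to 12147 UMIs, and 51 and 42 in pool 2 alone. It was 110 and 126 without the CD16/32 upper class and 62 and 56 without the forward scatter upper class. With at least 20 UMIs per gene it was 376 and 283, and with at least 100 it was 54 and 18. The thinned, pool and signal settings also use fewer UMIs and test fewer genes. The share of calls that were higher, 64.1%, was 93.5% with spike-ins, 46.6% without the CD16/32 upper class, 52.5% without the forward scatter upper class and 75% with 100 UMIs. The erythroid median, 1.44, was 0.76 over the 6 members with 50 UMIs and 0.28 without the 5 cells with most of its UMIs. The granulocyte-monocyte progenitor median, 0.31, was 0.62 with spike-ins, 0.60 in pool 1, -0.35 without the CD16/32 upper class and -0.13 without its 5 cells. The S phase median, 0.48, was 0.78 with spike-ins, 0.87 in pool 1, 0.061 in pool 2 and 0.78 without cells of CD127 above 2000. The G2/M median, 1.61, was 0.62 in pool 2, 1.94 without cells of CD127 above 2000, 0.90 without genes held by 1 cell and 0.23 without its 5 cells. Pool medians here cover the members with 10 UMIs in that pool. Cd74, 2.19, was -0.59 without the CD16/32 upper class and -0.000119 without its top cell. The cause of these changes was not tested beyond what each setting leaves out. Itgam ranged from -0.51 to 0.24. The lymphoid priming median, -0.50, was -0.19 with spike-ins, and the integrin median, -0.09, was 0.21 with spike-ins and -0.31 without the CD16/32 upper class. These settings of the lymphoid, stem, T and NK, interferon and integrin lists, and the setting without the 5 cells, were chosen after seeing the data. Of 705 values of 47 named genes under other settings, 593 lay within the gene's counting interval, 110 lay outside it and 2 reversed. A reversal was counted only for genes at least 2-fold apart. Genes named by their interval had the same sign in both pools by rule, so their pool values could not reverse. No paired analysis was possible because the labels give no replicate numbers or animals. Depth limits ratios of genes such as Klf1, Gata1, Aqp1, Fcgr3, Ms4a3 and Epor, with 2 or fewer UMIs in lower cells.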
